A study of Rattus norvegicus with 24 samples.

Results

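The kidney response to a high-salt, high-fat diet that was shared by an early and a late time was measured as the main effect of diet. It compared 12 arrays of rats on the high salt and fat diet (HSF below) with 12 arrays of rats on the normal diet, with the time on the diet as a block, so that all 24 of the 24 arrays of the series entered. The animals were male stroke-prone spontaneously hypertensive rats (SHR-SP), an inbred strain that develops severe hypertension, and all of them carry that genetic background, the normal-diet rats included. From 11 weeks of age they received either powdered chow and water, or chow with 24.5% fat and drinking water with 1% NaCl, and kidneys were taken after 2 or 8 weeks. Each of the 4 combinations of diet and time had 6 replicate arrays, taken as 1 per animal, with a different set of animals at each time. Salt and fat were given together, so their parts cannot be told apart.

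The kidney filters plasma in the glomerulus and recovers the filtrate along the tubule. The proximal tubule takes up most of the sodium, glucose, amino acids, phosphate and organic anions and runs largely on fatty acid oxidation, the thick ascending limb takes up salt without water, and the collecting duct adjusts water and sodium under vasopressin and aldosterone. Cells of the inner kidney store sorbitol, inositol and other organic osmolytes against their salty surroundings, and injured tubules switch on stress, adhesion and matrix genes.

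Values are the deposited MAS5 signals, linear intensities per probe set (a group of short probes for 1 transcript) on an Affymetrix rat array. Differences are on the scale of log2(signal + 7.21), always as HSF minus normal diet, and this scale understates the change of dim genes. Calls rest on limma, a linear model with a moderated variance: "called" means p under 0.05 after Benjamini-Hochberg adjustment across 15866 probe sets, and all adjusted p values below come from it. Array medians lay between 68.7 and 78.7. All 11 measured genes of the 12 on a kidney identity list, which include Aqp2 of the collecting duct, had a mean signal above the 40th percentile of probe sets, and in the comparison of diets 4 of the 11 were called higher and 4 lower, against 11.8% of all genes called. Because whole kidney was used, fewer cells of a type and less RNA per cell cannot be told apart. Arrays 1 and 2 of the normal diet at 8 weeks stood apart in having the highest first percentiles of signal of the series, 2.4 and 3. The fat index, the mean standardised level of the adipocyte genes Fabp4, Cfd and Car3, differed by -1.72 between diets at 2 weeks (exact two-sided permutation p = 0.00866, 0.0216 adjusted over 5 array measures) and by 0.23 at 8 weeks (exact permutation p = 0.662). The 3' to 5' ratio of the GAPDH control probe sets, a measure of RNA integrity, was 0.13 higher at 2 weeks (exact permutation p = 0.0152, adjusted 0.0253) and 0.01 higher at 8 weeks (exact permutation p = 0.911). The level of the spiked control RNAs differed by -0.3 log2 units at 2 weeks (exact permutation p = 0.00216, adjusted 0.0108) and by 0.23 at 8 weeks (exact permutation p = 0.0476, adjusted 0.238). Their part in the results was not tested beyond the fits with each as a covariate.

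With both times together, 1639 probe sets, 10.3% of those tested, were called. On the HSF diet 913 (5.75%) were higher and 726 (4.58%) lower. Without normal-diet arrays 1 and 2 at 8 weeks the number was 1351, and leaving out array 1 of the HSF diet at 8 weeks gave 1269. At 2 weeks alone 730 probe sets (4.6%) were called, 371 higher (2.34%) and 359 lower (2.26%), and at 8 weeks alone 849 (5.35%), 531 higher (3.35%) and 318 lower (2%). Both single-time tests took their variance from all 24 arrays, and with only the 12 arrays of that time 511 were called at 8 weeks. Of the 1639, 672 were called at neither time, 329 at 2 weeks alone, 405 at 8 weeks alone and 233 at both. The main effect is an average, and 168 probe sets called at 2 weeks and 211 called at 8 weeks were not called in it.

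Most called differences were small. The median absolute main effect was 0.34, a 1.26-fold difference. Of the 427 called probe sets with an absolute effect under 0.25, 58.1% were called at neither single time and 0.7% at both. Of the 854 between 0.25 and 0.5, 38.4% were called at neither, and of the 310 between 0.5 and 1, 30.6%. Among the 48 of 1 or more, of which 44 were higher, 2.1% were called at neither time and 60.4% at both.

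**Figure D1:**
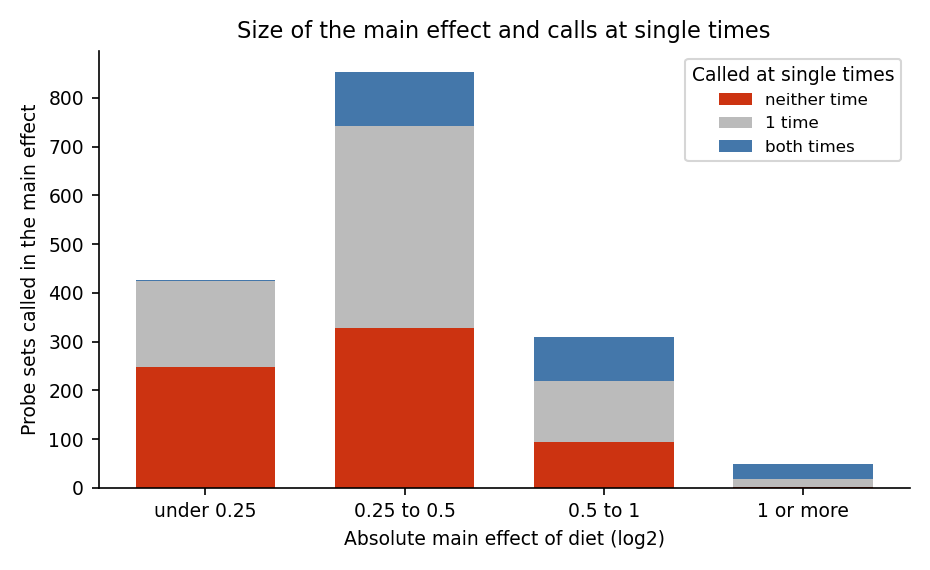
Number of probe sets called in the main effect of diet (vertical axis) by absolute main effect on the log2 scale (horizontal axis), split by whether the diet effect was also called at neither time, at 1 time or at both times. The 427 probe sets under 0.25 are mostly called at neither time, and the 48 of 1 or more mostly at both.

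A called difference is termed sustained here where both times had the same sign and the smaller estimate was at least 0.5 times the larger. This held for 1163 probe sets, 7.33% of those tested and 71.0% of those called, 636 higher and 527 lower. Of these, 225 were called at both times and 611 (3.85% of those tested, 314 higher and 297 lower) at neither, and 521 of the 611 had an absolute main effect under 0.5. The 611 had a median absolute effect of 0.3, or 1.23-fold, against 0.49, or 1.41-fold, for the 225. Without normal-diet arrays 1 and 2 at 8 weeks, 968 were sustained and 532 called at neither time. Adjusted p over single times just above 0.05 put some probe sets into the group called at neither, so its edge is not sharp: Septin9 had a smallest single-time adjusted p of 0.0501. In 345 of the 611, the unadjusted p was under 0.05 at both times. The diet effect differed between times, as a called interaction, in 31 probe sets (0.195%). The unadjusted p of this difference between times was under 0.05 in 1537 (9.687%). The median half-width of the 95% interval of that difference was 0.35 among the 611, so that similar estimates do not show equal effects. A stricter test, the larger of both times' p values, called 104 probe sets (0.655%), 80 higher and 24 lower. It called 30 with the fat index, 32 with the spike-in level and 62 with the GAPDH ratio as a covariate, and 65 without normal-diet arrays 1 and 2 at 8 weeks.

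Since the times share no array, the difference at each time is a second measurement of what the other called. The p values of the times are not independent, because both took their variance from the arrays of both times. The part of this shared variance in the shares with an unadjusted p under 0.05 was not tested. Of the 730 probe sets called at 2 weeks, 650 (89.0%) had the same sign at 8 weeks and 396 (54.2%) also had an unadjusted p under 0.05 there, and the median difference in the direction of the call went from 0.47 to 0.23. Of the 849 called at 8 weeks, 736 (86.7%) had the same sign at 2 weeks and 413 (48.6%) also passed the unadjusted threshold, with medians of 0.46 and 0.21. Over all probe sets, 63.5% had the same sign at both times, and 15.6% had the same sign with an unadjusted p under 0.05 at 8 weeks and 14.1% at 2 weeks. Pearson's r between the differences at 2 and 8 weeks was 0.355 over the 15866 probe sets and 0.443 over the 9520 with a mean above the 40th percentile, a description across probe sets, which are not independent.

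**Figure D2:**
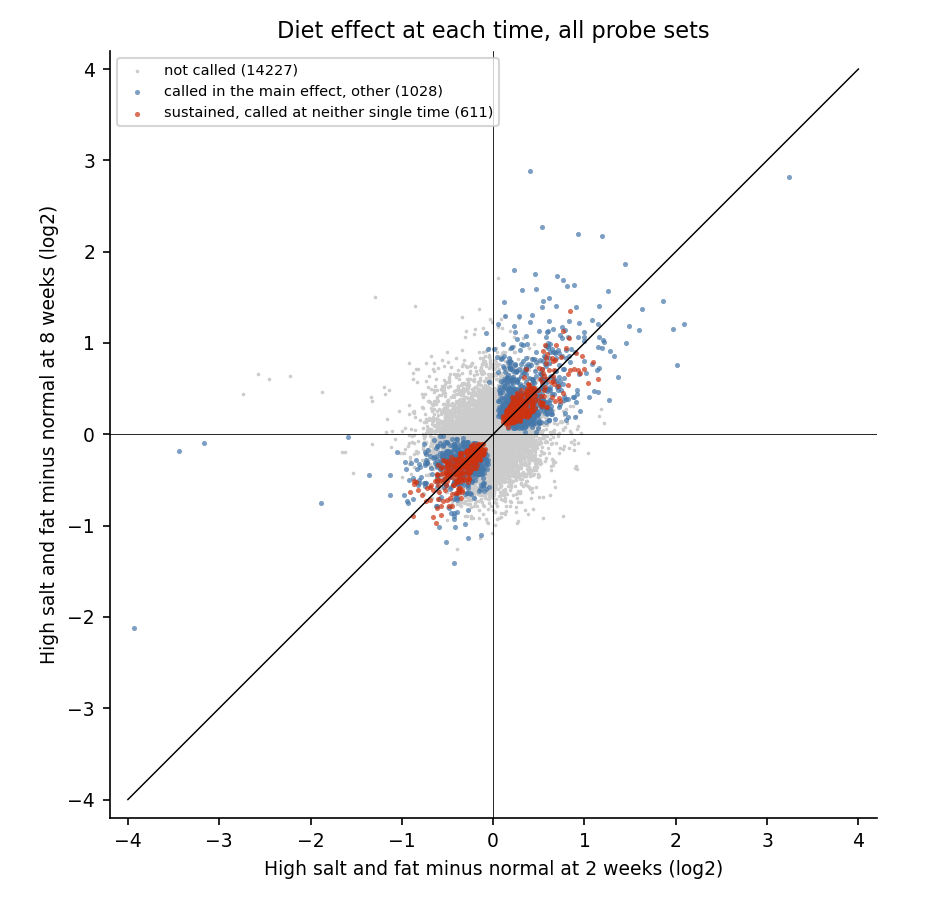
Difference between diets at 2 weeks (horizontal axis) and at 8 weeks (vertical axis), both log2, for each of 15866 probe sets, with the line of equal effects. The 611 sustained probe sets called at neither single time lie along the line, most of them near the origin. The other called ones spread further from it. The 611 were defined by like sign and size at both times and by the missing calls, so their place describes the definition.

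The 10 modest sustained increases with the smallest main effect p that were called at neither time had genes of varied roles. Nop58, a core protein of the box C/D small nucleolar ribonucleoproteins that guide ribosomal RNA methylation, had signals of 104.7 to 173.1 (median 140.4) on the normal diet and 137.0 to 254.8 (median 185.7) on the HSF diet. The difference was 0.35 ± 0.08 (SE, 12 against 12 arrays, adjusted p = 0.00363), with 0.35 at 2 weeks (adjusted p = 0.0825) and 0.36 at 8 weeks (adjusted p = 0.0589). The groups overlapped, and 10 of 12 HSF arrays lay above the normal-diet median. Srxn1, sulfiredoxin, which restores oxidised peroxiredoxins, ranged from 65.1 to 100.0 (median 82.6) on the normal diet and from 80.5 to 177.1 (median 105.2) on the other. Its difference was 0.43, with 0.41 and 0.44 at 2 and 8 weeks. Rars1, the arginyl-tRNA synthetase, went from a median of 163.4 (112.6 to 201.4) to 189.4 (161.9 to 225.4). Bola2, which works with glutaredoxins in the handling of iron-sulfur clusters, went from a median of 175.8 (134.0 to 229.5) to 244.2 (167.7 to 366.2). The Rars1 difference was 0.28 at 2 weeks and 0.29 at 8 weeks, and that of Bola2 was 0.45 and 0.51.

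Maged2, known for a role in the surface expression of the salt cotransporters of the fetal distal nephron, had a median of 51.15 (36.2 to 74.6) on the normal diet and 74.2 (54.9 to 116.2) on the HSF diet, a difference of 0.49 at both times. At 2 weeks its groups did not overlap, which held for 3.32% of all probe sets, and at 8 weeks they did. Cntf, ciliary neurotrophic factor, rose by 0.44, with all 12 HSF arrays above the normal median but within the reach of the highest normal ones. Med24, a subunit of the Mediator complex (0.23), Naa38, of an amino-terminal acetyltransferase (0.23), and Flot1, the membrane scaffold flotillin (0.35), also rose. Arl1, a small GTPase of the Golgi, rose by 0.23 on 1 probe set, while its other probe set gave -0.05 (adjusted p = 0.675), so its increase rests on 1 of 2 probe sets.

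The 10 modest sustained decreases chosen in the same way were also of varied roles. Ghr, the growth hormone receptor, had signals of 182.4 to 254.6 (median 207.9) on the normal diet and 97.9 to 215.1 (median 168.2) on the HSF diet. The difference was -0.43 ± 0.1 (SE, 12 against 12 arrays, adjusted p = 0.00394), with -0.42 at 2 weeks and -0.43 at 8 weeks. The groups overlapped at both times, and 11 of 12 HSF arrays were below the normal median. The other Ghr probe set gave -0.41 (adjusted p = 9.48e-05), with -0.46 at 2 weeks and -0.36 at 8 weeks. Being called at neither time thus describes the probe set chosen, not the gene. Hoga1, the aldolase that ends mitochondrial hydroxyproline breakdown, went from a median of 454.4 (382.6 to 579.7) to 370.1 (261.8 to 482.0), a difference of -0.33 at both times. Its other probe sets gave -0.28 (adjusted p = 0.000587, with -0.23 at 2 weeks and -0.33 at 8 weeks) and -0.52 (adjusted p = 0.187). Suox, sulfite oxidase, the last step of cysteine breakdown, went from a median of 262.4 (238.6 to 329.2) to 221.4 (164.5 to 289.7). The Suox groups overlapped at 2 weeks and not at 8 weeks, when 2.45% of all probe sets did not overlap.

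Fads2, a desaturase of polyunsaturated fatty acid synthesis, went from a median of 213.7 (174.7 to 263.8) to 164.9 (127.9 to 208.8), with -0.38 at 2 weeks and -0.36 at 8 weeks. Every HSF array lay below its normal-diet median. Rab11fip3, an effector of Rab11 in recycling endosomes, had the smallest p of the 20 genes described here, with -0.44 ± 0.1 (SE, 12 against 12 arrays, adjusted p = 0.00349). Its signals were 130.8 to 267.4 (median 202.1) and 113.5 to 216.8 (median 147.7), and the groups overlapped. Myo5a, an actin motor for vesicles, fell by 0.3 (main effect -0.3), and Ptges2, a prostaglandin E synthase, had a difference of -0.19 at each time. The differences of Tcaim, a mitochondrial protein, Nat8b, an N-acetyltransferase of kidney and liver, and Rnaseh2b, a ribonuclease H2 subunit, were -0.27, -0.23 and -0.31.

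All 20 of these genes overlapped between the 12 and 12 arrays, and all 20 were still called when any single array was left out, with a largest adjusted p of 0.013. Their differences between the diet effects at 8 and 2 weeks were at most 0.06 in size. The 95% intervals of those differences reached from -0.48 to 0.52, so larger changes between the times were not excluded by these data. They were chosen for similar estimates, for a small main effect p and for missing the threshold at each time. Under these conditions a small p leaves little room for unlike times. The small differences between times, like the calls and the missed thresholds, thus describe the choice.

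**Figure D3:**
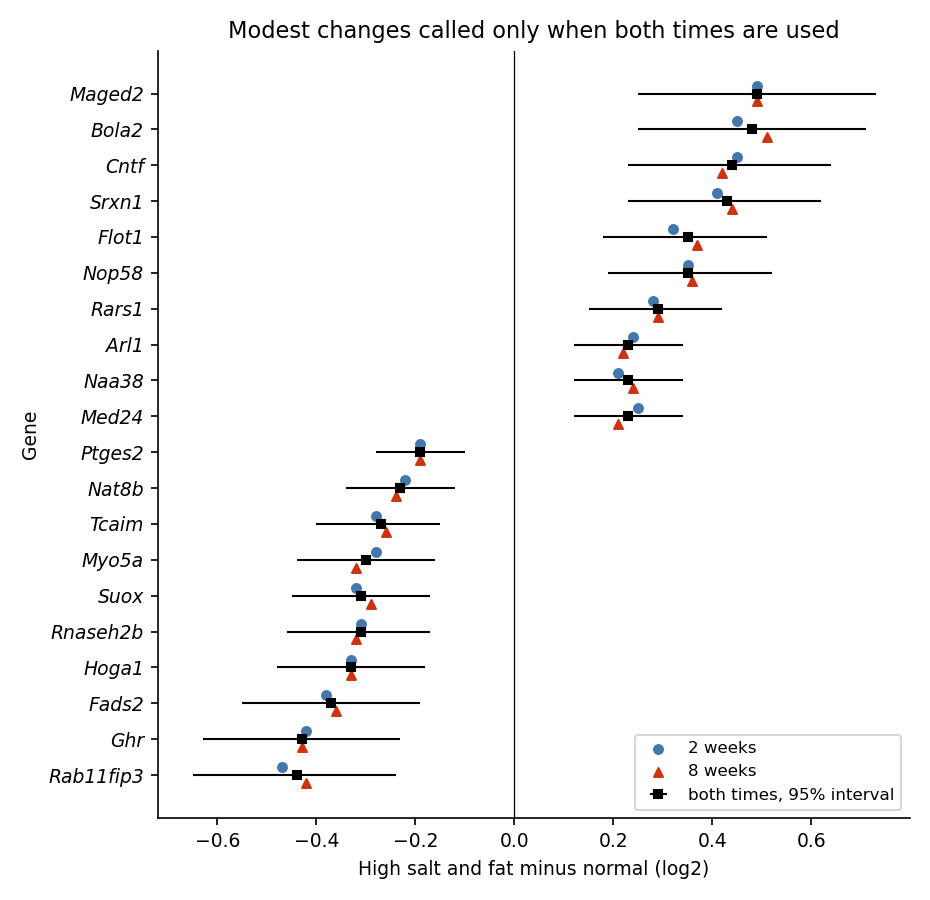
Difference between diets on the log2 scale (horizontal axis) for the 10 higher and 10 lower genes of smallest main effect p among modest sustained changes called at neither time. Squares are the main effect with its 95% interval, circles the estimate at 2 weeks and triangles at 8 weeks. In each gene both single-time estimates sit within 0.06 of each other and inside the interval. The genes were chosen for similar estimates and for missing the threshold at each time, so this closeness describes the choice.

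The sustained genes called at both times with the smallest p were larger in effect, and 13 of the 16 did not overlap between 12 and 12 arrays. Over the whole array 56 probe sets (0.353%) did not overlap, 41 of them higher (0.258%) and 15 lower (0.0945%). The 16 were chosen by the p of the same values, so their lack of overlap describes the choice. Bcam, a laminin receptor of epithelial cells, had signals of 209.0 to 281.4 (median 253.8) on the normal diet and 392.6 to 524.5 (median 429.2) on the HSF diet. The difference was 0.82 ± 0.05 (SE, 12 against 12 arrays, adjusted p = 5.95e-11), with 0.84 at 2 weeks and 0.79 at 8 weeks. Crip2, a LIM domain protein, rose by 0.7, and its groups did not overlap. Mrps6 rose by 1.11. Slc5a3, the myo-inositol carrier, shares this locus, so which transcript the Mrps6 probe set reads is uncertain.

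Slc4a4, the sodium bicarbonate cotransporter of the proximal tubule's blood side, ranged from 1096.8 to 1413.2 (median 1242) on the normal diet and from 782.3 to 998.2 (median 907.9) on the other. Its difference was -0.47 at both times, 1.38-fold. The other Slc4a4 probe set gave -0.63, with -0.97 at 2 weeks and -0.3 at 8 weeks, and was not sustained by the ratio used. The like size at both times thus rests on 1 of 2 probe sets. Kcnj16, a potassium channel subunit of the tubule's blood side, was lower on both of its probe sets, by -0.46 and -0.37. Spp2, a secreted phosphoprotein, went from a median of 2896 to 2200, and Fmo1, a flavin-containing monooxygenase, from 1674 to 1357. None of these 4 genes overlapped between diets on the probe set of smaller p. Csf2rb, the shared receptor chain for several blood cell growth factors, was lower by 1.58-fold, Cmbl, a hydrolase, by 1.24-fold and Spink1l, of the trypsin inhibitor family, by 1.32-fold. Spink1l, Cmbl and the omega-hydroxylase Cyp4a1 overlapped over the 12 against 12 arrays.

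**Figure D4:**
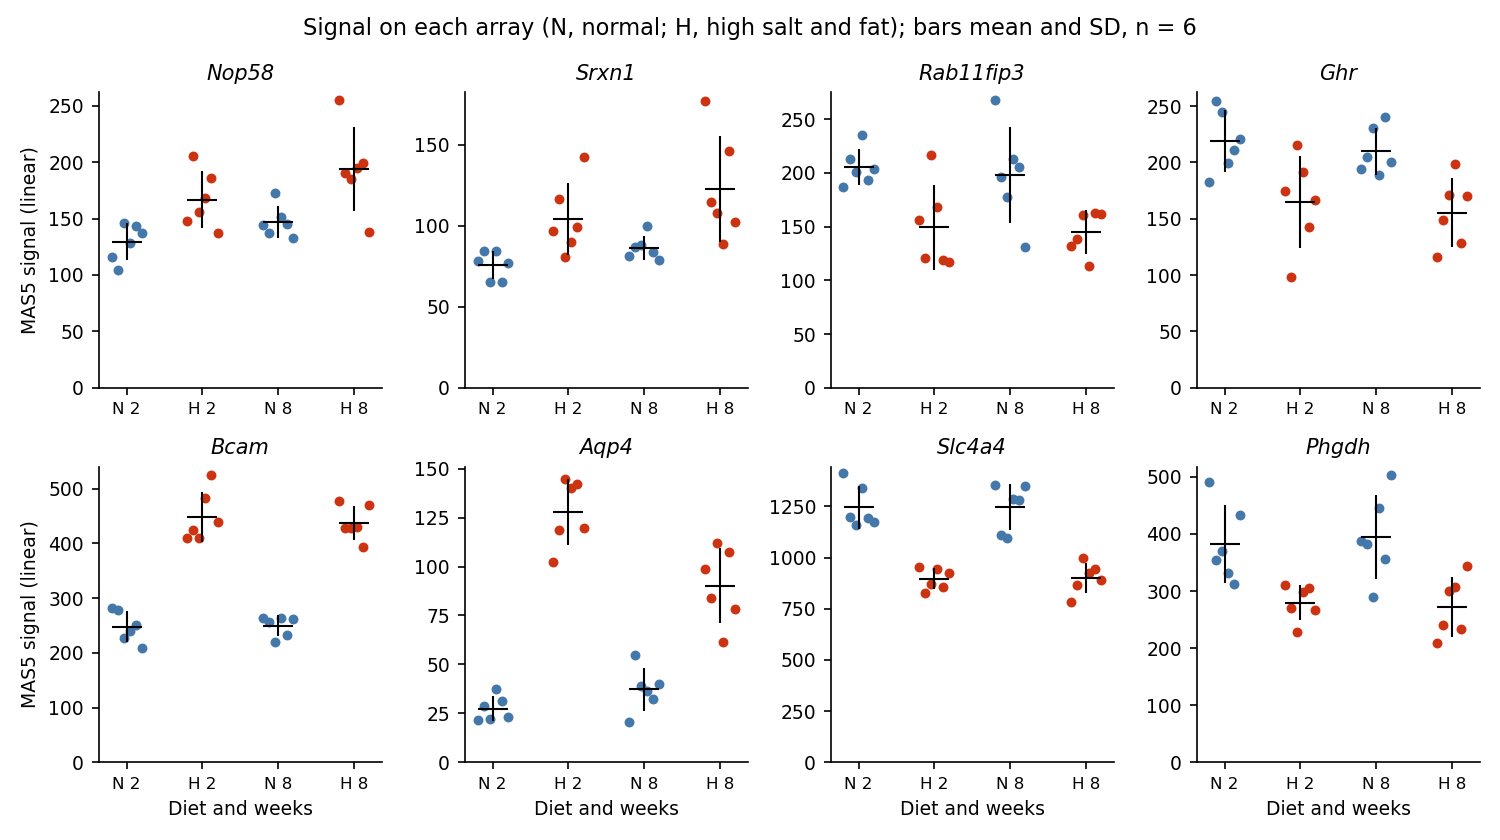
MAS5 signal (linear, vertical axis) on each array for 8 genes, by diet and weeks (horizontal axis; N normal, H HSF), with mean and SD of 6 arrays. Nop58, Srxn1, Rab11fip3 and Ghr overlap between diets at each time, whereas Bcam, Aqp4 and Slc4a4 do not, and Phgdh overlaps at 8 weeks.

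Gene lists are described next by counts, with each gene read from its probe set of highest mean signal. The main 14 were chosen for the highest shares called in these same data, so a share above that of all genes describes the choice. Of 10411 genes, 1227 (11.8%) were called, 713 higher (6.85%) and 514 lower (4.94%), with a median difference of -0.01. Sustained genes numbered 877 (8.42%), and 454 (4.36%) were sustained and called at neither time.

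Of 31 measured proximal tubule transporters and endocytic receptors, 14 were called, all 14 lower, 12 of them sustained. The median was -0.25, with -0.22 at 2 weeks and -0.24 at 8 weeks. Slc22a8, a basolateral organic anion transporter, went from a median of 2627 (2193.6 to 2901.1) to 1967 (1564.1 to 2227.3), a difference of -0.39. The fatty acid carrier Slc27a2 differed by -0.32, and its groups did not overlap at either time. Slc5a2, the main glucose carrier, had -0.43 at 2 weeks and -0.71 at 8 weeks, and the 95% interval of the difference between them, -0.64 to 0.09, held 0. Slc7a7, a subunit of the basolateral cationic amino acid exporter, and Lrp2, megalin, the endocytic receptor for filtered protein, were picked after their values were seen. They differed by -0.6 and -0.29, with -0.61 and -0.26 at 2 weeks and -0.58 and -0.33 at 8 weeks.

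In amino acid and one-carbon metabolism, 22 of 56 genes were called, all 22 lower, with 16 sustained, 6 of these 16 called at neither time. The list's median was -0.18, with -0.16 at 2 weeks and -0.21 at 8 weeks. The aromatic amino acid decarboxylase Ddc, which makes dopamine in the proximal tubule, fell from a median of 497.9 (455.4 to 607.1) to 380.9 (250.2 to 449.7), with no overlap of the 12 and 12 arrays. Its difference was -0.53 ± 0.08 (SE, adjusted p = 9.48e-05), while a dimmer Ddc probe set gave -0.29 (adjusted p = 0.285). Ass1, the argininosuccinate synthase of renal arginine synthesis, differed by -0.39. Hpd of tyrosine breakdown had -0.53 at 2 weeks and -0.23 at 8 weeks, and Kmo of tryptophan breakdown -0.28 and -0.29. Asl, which follows Ass1, and Gatm, the first enzyme of creatine synthesis, were named after their values were seen and differed by -0.29 and -0.34. With the GAPDH ratio as a covariate, the Asl difference was -0.25 and no longer called (adjusted p = 0.0762).

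The enzymes of serine synthesis, also picked after their values were seen, were each lower. Phgdh, the first step, went from a median of 376 (290.2 to 503.2) to 284.1 (208.8 to 344.5), a difference of -0.48 ± 0.09 (SE, 12 against 12 arrays, adjusted p = 0.000668). Psat1, the second, went from 1375 (1267.7 to 1534.5) to 1077 (909.8 to 1335.5), and Psph, the last, from 166.8 (121.3 to 200.3) to 120.2 (82.5 to 174.3). At 2 and 8 weeks the differences were -0.43 and -0.52 for Phgdh, -0.42 and -0.23 for Psat1, and -0.4 and -0.44 for Psph. Psph was called at neither single time (adjusted p = 0.128 and 0.0767), and all 3 overlapped over the 12 and 12 arrays. Atf4, a transcription factor known to drive serine synthesis genes and also picked after its values were seen, was 0.3 higher, with 0.24 at 2 weeks (adjusted p = 0.207) and 0.36 at 8 weeks (adjusted p = 0.0342).

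The 250 bases before the RefSeq start of these 3 genes (assembly GRCr8, 5′ to 3′ on the gene's strand) are shown because all 3 steps of the pathway were lower. They are chr2:188624790-188625039 on the minus strand for Phgdh, chr1:222645409-222645658 on the minus strand for Psat1 and chr12:32526841-32527090 on the plus strand for Psph. Capitals mark matches to 4 motifs searched on both strands: the C/EBP-ATF response element core TGATGNAA, the cyclic AMP response element TGACGTCA, the E-box CACGTG and the TATA box TATAAA.
Phgdh: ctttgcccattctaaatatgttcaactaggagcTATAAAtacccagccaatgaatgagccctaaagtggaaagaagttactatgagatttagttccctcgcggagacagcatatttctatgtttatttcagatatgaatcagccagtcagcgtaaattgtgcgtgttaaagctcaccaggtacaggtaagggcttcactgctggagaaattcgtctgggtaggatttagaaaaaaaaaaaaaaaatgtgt
Psat1: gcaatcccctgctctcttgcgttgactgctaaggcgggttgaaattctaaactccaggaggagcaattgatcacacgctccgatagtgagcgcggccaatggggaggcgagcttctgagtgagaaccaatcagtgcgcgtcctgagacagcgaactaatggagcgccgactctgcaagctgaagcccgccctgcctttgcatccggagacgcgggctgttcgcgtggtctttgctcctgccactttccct
Psph: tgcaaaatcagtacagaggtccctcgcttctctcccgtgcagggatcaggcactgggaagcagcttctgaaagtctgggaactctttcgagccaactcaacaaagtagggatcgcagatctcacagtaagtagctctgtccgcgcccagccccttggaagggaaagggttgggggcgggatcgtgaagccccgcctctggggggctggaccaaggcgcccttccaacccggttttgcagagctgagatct
The only match was a TATA box 217 bases before the Phgdh start. Such a window was given for 410 higher and 318 lower genes of the 877 sustained ones. The TATA box occurred in 8.37% of the 8630 windows of genes on the array (13.1% of all 27457 windows), 7.8% of those of the higher sustained genes and 9.43% of those of the lower ones. The corresponding shares were 1.99% (3.27%), 2.2% and 1.26% for the C/EBP-ATF core, 2.65% (1.7%), 3.66% and 1.26% for the cyclic AMP element, and 7.89% (5.79%), 9.02% and 8.49% for the E-box. None of these differences was tested. A match is no evidence that a factor binds there.

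Of 57 fatty acid oxidation, ketone and peroxisome genes, 18 were called lower and 3 higher, with a list median of -0.11. Of the 21, 15 were sustained, and 5 of these 15 were called at neither time. Ehhadh, a peroxisomal oxidation enzyme, went from a median of 857.9 (592.1 to 1012.6) to 549.2 (430.4 to 710.5), a difference of -0.55. Decr2, for unsaturated chains, differed by -0.39. Acot12, an acetyl-CoA thioesterase, and Etfdh, which passes electrons from fatty acid oxidation to ubiquinone, were named after their values were seen. They had -0.7 and -0.26, the latter with -0.26 at 2 weeks and -0.27 at 8 weeks and called at neither. Against the list's direction, Cpt1b, a carnitine palmitoyltransferase best known from muscle, went from a median of 117.3 (94.9 to 163.0) to 190.9 (125.8 to 269.9), a difference of 0.59. In the citrate cycle and pyruvate list, 7 of 24 genes were lower and 1 higher, 7 of the 8 sustained. Pc, pyruvate carboxylase, differed by -0.45, Pdp2, a pyruvate dehydrogenase phosphatase, by -0.46, the isocitrate dehydrogenase Idh1 by -0.25 and the succinate-CoA ligase subunit Suclg2 by -0.19. Nuclear-encoded subunits of oxidative phosphorylation were called in 4 of 72 genes, a share of 5.6% that is below the 11.8% of all genes, with a median of 0.01.

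In the thick ascending limb list, 6 of 11 genes were higher and 1 lower, with 6 sustained and a median of 0.27. Slc12a1, the sodium-potassium-chloride cotransporter that is the target of loop diuretics, went from a median of 391.8 (268.2 to 481.2) to 539 (403.2 to 680.9), a difference of 0.46 ± 0.08 (SE, 12 against 12 arrays, adjusted p = 0.000263). Its groups did not overlap at 2 weeks and did at 8 weeks. Cldn19, a tight junction protein for magnesium and calcium recovery, had 0.57 at 2 weeks and 0.61 at 8 weeks. Ppp1r1b, a phosphatase inhibitor, differed by 1.09, and the lower gene was Kcnj16. Of 14 tight junction genes, 6 were higher and 0 lower, 2 of them sustained, Cldn16 (0.52 and 0.35, chosen here after its values were seen) and Cldn19, which are also in the thick ascending limb list. Cldn3 and Cldn4, of distal tubule junctions, were not sustained by the ratio used, with 0.46 and 0.61 at 2 weeks and 1.75 and 1.24 at 8 weeks. Cldn10, in both lists, had 0.41 and 0.11, and its main effect of 0.26 was not called with the fat index (adjusted p = 0.0555) or the GAPDH ratio (adjusted p = 0.0614) as a covariate.

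Among 16 collecting duct principal cell genes, 5 were higher and 1 lower, 5 of the 6 sustained, although the list's median was -0.05. Aqp2, the water channel set by vasopressin, went from a median of 767.4 (447.2 to 1062.0) to 1413 (1064.6 to 1781.7), with no overlap. Its difference was 0.95, with 1.16 at 2 weeks and 0.73 at 8 weeks. Aqp4 went from a median of 31.75 (20.8 to 55.0) to 109.6 (61.3 to 144.8), again without overlap. Its difference was 1.56, while its dimmer probe sets gave 0.63 (called) and 0.43 (adjusted p = 0.258). Aqp3, of the basolateral side, had 0.73 and 0.33 at 2 and 8 weeks, and Fxyd4, which modulates the sodium pump, 1.02 and 0.67. Avpr2, the vasopressin receptor, and Scnn1b, the beta subunit of the epithelial sodium channel, were named after their values were seen, the latter as the lower member. They differed by 0.42 and -0.22, and a dimmer Avpr2 probe set gave -0.27 (adjusted p = 0.21). The interaction was called for none of these 6 genes, with adjusted p from 0.214 for Aqp3 and Aqp4 to 0.871 for Scnn1b, although the unadjusted 95% intervals of Aqp2 (-0.83 to -0.03), Aqp3 (-0.64 to -0.17) and Aqp4 (-1.31 to -0.34) lay below 0.

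Of 11 osmolyte genes, 4 were higher and 2 lower, 5 of the 6 sustained. For Akr1b1, the aldose reductase that forms sorbitol, the signal went from a median of 146.6 (92.5 to 167.1) to 495.7 (221.0 to 880.0), a difference of 1.66 ± 0.16 (SE, 12 against 12 arrays, adjusted p = 7.01e-08). Isyna1, which makes inositol phosphate, went from a median of 47.45 (22.6 to 62.8) to 105.2 (71.5 to 214.0). Neither gene overlapped between diets. Nfat5, the tonicity-responsive transcription factor, differed by 0.41, with 0.19 on its other probe set (adjusted p = 0.181). Sord, which breaks down sorbitol, differed by -0.32, and its other probe set gave -0.48. The list's median was 0.25, with 0.47 at 2 weeks and -0.04 at 8 weeks, and 0.14 with the fat index as a covariate.

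Of 14 sodium pump and widely used sodium transporter genes, 4 were higher and 2 lower. Slc38a2, a sodium-coupled neutral amino acid carrier, had 0.59 at 2 weeks and 0.47 at 8 weeks. Slc34a2, a phosphate carrier, had 0.3 and 0.99, and the glutamate carrier Slc1a1 had -0.19 and -0.26, with -0.17 on another probe set (adjusted p = 0.0881). Of 11 intercalated cell and acid-base genes, 2 were higher and 2 lower, 1 of them sustained. That one, Slc4a7, a sodium bicarbonate cotransporter, went from a median of 38.2 (24.7 to 67.2) to 111 (55.0 to 180.1), but another of its probe sets gave -0.04 (adjusted p = 0.867). Slc4a1, the anion exchanger shared with red cells, had 0.44 and 0.14 at the 2 times, and its other probe set gave 0.06. Slc26a4, pendrin, differed by -0.28. Car14, a carbonic anhydrase, differed by -0.38, a call lost in 12 of the 24 fits that each left out 1 array. Without normal-diet arrays 1 and 2 at 8 weeks it was -0.24 (adjusted p = 0.143).

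**Figure D5:**
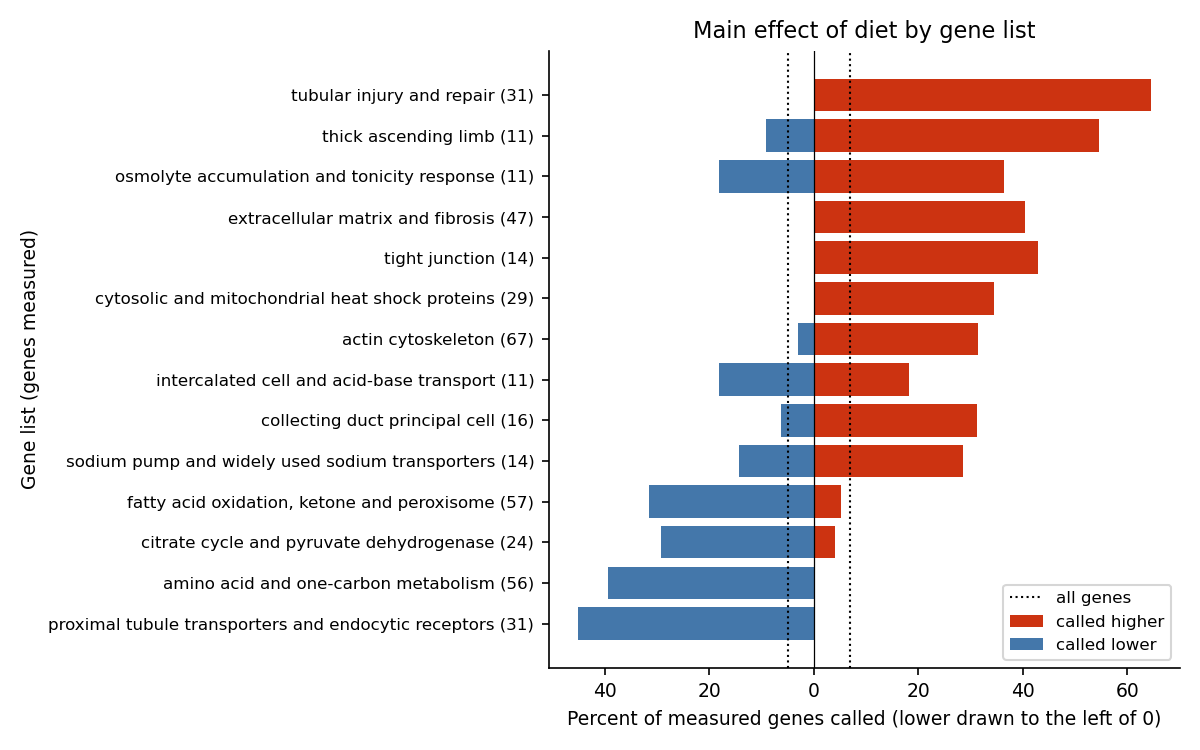
Percent of measured genes called higher (right) and lower (left, drawn as positive percentages) in the main effect of diet for 14 gene lists (vertical axis, with the number of genes measured), beside the 6.85% higher and 4.94% lower of all genes as dotted lines. The proximal tubule transporter and amino acid lists hold lower genes alone, and the injury, matrix, tight junction and heat shock lists higher genes alone. The 14 lists were chosen for the highest shares called in these data, so their excess over all genes describes the choice. Lists with lower shares are not drawn.

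Heat shock proteins were higher in 10 of 29 genes and lower in 0, 7 of them sustained. Cryab, the small chaperone alpha B crystallin, went from a median of 1011 (567.4 to 1180.9) to 1690 (1236.6 to 2125.9) without overlap, and had 0.78 at 2 weeks and 0.72 at 8 weeks. Hspa1a, the inducible chaperone, went from a median of 133.4 (92.0 to 218.0) to 231.9 (166.8 to 1171.7), a difference of 1.03 with an SE of 0.22. Hspa2 differed by 0.67, and Hspb1, a small chaperone that binds actin, had 0.5 and 1.13. Of 67 actin cytoskeleton genes, 21 were higher and 2 lower, 10 of the 23 sustained and 6 of these 10 called at neither time. Actn1, which bundles actin, had 0.43 at 2 weeks and 0.82 at 8 weeks, and its other probe set gave 0.24 (adjusted p = 0.133). Capg, a filament capping protein, had 0.6 and 0.97, and Flna, the crosslinker filamin A, 0.36 and 0.83. Tpm1 had 0.3 and 0.64 on its brightest probe set, and none of its other 5 was called.

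The matrix list had 19 of 47 genes higher and 0 lower, but 8 were sustained, and the medians were 0.09 at 2 weeks and 0.28 at 8 weeks. Col18a1, a collagen of basement membranes, went from a median of 315.7 (260.1 to 373.9) to 460.1 (384.5 to 543.8) without overlap, with 0.53 at 2 weeks and 0.61 at 8 weeks. Fn1, fibronectin, went from a median of 323.5 (277.7 to 399.3) to 622 (452.3 to 980.6), also without overlap, with 0.75 and 1.05. Lamb2, a laminin chain, had 0.56 and 0.37, and Col4a2, the basement membrane collagen chosen after its values were seen, 0.32 and 0.4. The fibrillar collagens Col1a1 and Col3a1, the latter also chosen so, had 0.23 and 0.01 at 2 weeks and 1.8 and 0.93 at 8 weeks, and the interaction was called for both (adjusted p = 0.0256 and 0.0458). Without normal-diet arrays 1 and 2 at 8 weeks, the Col3a1 main effect was 0.44 and not called (adjusted p = 0.054). Emilin1, of elastic fibres, had 0.7 and 1.73 without a called interaction (adjusted p = 0.389).

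In the tubular injury list 20 of 31 genes were higher and 0 lower, with a median of 0.24 at 2 weeks and 0.86 at 8 weeks, and 9 sustained. The sustained ones included S100a6, a calcium-binding protein, which went from a median of 153.4 (106.1 to 266.9) to 487.3 (330.9 to 1035.6), with 1.44 at 2 weeks and 1.87 at 8 weeks. The adhesion protein Cd24 went from a median of 567.5 (472.4 to 713.1) to 1073 (861.5 to 1589.0). S100a11 rose by 0.97, and the membrane-binding protein Anxa5 by 0.78. None of these 4 overlapped between 12 and 12 arrays.

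Other injury genes made the main effect an average of unlike times. The main effect and the interaction were both called in 11 probe sets, all higher. That number was unstable: it moved by more than 1.5 times in 16 of the 24 fits that left out 1 array, down to 1 without HSF array 3 at 2 weeks or HSF array 1 or 3 at 8 weeks and up to 18 without HSF array 2 at 8 weeks. Lcn2, the injury marker NGAL, had medians of 44.1 and 63.45 on the normal and the HSF diet at 2 weeks and 38 and 237.6 at 8 weeks. Clu, clusterin, had -0.08 at 2 weeks and 1.11 at 8 weeks, so that its main effect of 0.52 describes neither time. That effect was not called without the time block (adjusted p = 0.105) or without normal-diet arrays 1 and 2 at 8 weeks (adjusted p = 0.0674), and another, very dim Clu probe set gave a difference near 0 (adjusted p = 0.991). Havcr1, KIM-1, named after its values were seen, had 0.4 and 2.88. Spp1, osteopontin, likewise picked, had 0.93 and 2.19, and its groups did not overlap at either time. C1qa, a complement gene of macrophages, had -0.05 and 0.57, and its main effect call was lost in 16 of the 24 fits that left out 1 array.

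The summed signal of some marker lists of other cells moved beside some of these groups, and their part in the results was not tested. Among all genes 11.8% were called. The share was 27.8% for smooth muscle and pericyte, 22.2% for podocyte, 15.4% for adipocyte and 12.5% for endothelial genes. It was 10.7% for macrophage and myeloid genes, below that of all genes, as were the liver list and the adrenal medulla and nerve list. The erythroid and urothelial lists lay above it, with 1 gene called in each. The summed signal of 28 macrophage and myeloid genes was 4560 to 5247 on the normal and 4158 to 4832 on the HSF diet at 2 weeks, and 4262 to 5029 and 4966 to 6846 at 8 weeks, beside the later matrix and injury changes. Of these 28 genes, 3 were higher. The 18 smooth muscle and pericyte genes summed to 1940 to 2356 and 2201 to 2470 at 2 weeks, and 2196 to 2529 and 2672 to 3096 at 8 weeks, beside the actin changes, with 5 of 18 higher. The 13 adipocyte genes ranged from 1388 to 6321 on the normal diet and from 1133 to 1570 on the HSF diet at 2 weeks, and from 1118 to 5543 and 1639 to 2142 at 8 weeks, with 2 lower. The 9 podocyte genes summed to 1147 to 1187 and 950.7 to 1164 at 2 weeks, and 1118 to 1318 and 923.4 to 1137 at 8 weeks, with 2 lower. The 24 endothelial genes, 3 of them higher, summed to 3872 to 4254 and 3882 to 4692 at 2 weeks, and 3751 to 4173 and 3991 to 4410 at 8 weeks. Of the 7 neutrophil markers 0, and of the 15 lymphocyte markers 3, had a mean above the 40th percentile. Of the 20 liver markers 1 was higher and 1 lower, of 5 erythroid markers 1 was higher, and of 10 markers of adrenal medulla and nerve 1 was higher. Among 4 measured urothelial markers, Psca, a surface protein of urothelium picked after its values were seen, went from a median of 7.85 (4.5 to 26.2) to 136.1 (53.2 to 213.4) with no overlap. Its difference of 3.03 was called at both times, with 3.24 at 2 weeks and 2.82 at 8 weeks. The other 3 urothelial markers were not called, and the median of the 4 was -0.03.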

How the data were processed

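Kidney RNA was measured on 24 arrays, 6 per diet and time, taken as 1 array per rat. The authors deposited intensity values that are MAS5 signals per the submitters' processing notes, for 15923 probe sets. The MAS5 version and scaling target are not given in the sources used here. Each array's mean signal, with the lowest and highest values trimmed, lay between 150.034 and 150.042, so the deposited values had been scaled to a common level. With 57 array controls left out, 15866 were tested without a filter on low values or further normalization. Symbols came from the platform annotation, checked against RefSeq GRCr8: 12783 probe sets had 1 symbol, 312 several and 2771 none.

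Fits used R 4.3.3 and limma 3.58.1 (lmFit and eBayes with trend) on log2(signal + 7.21), the pseudocount being 0.1 of the middle array median. The main model held diet and time, and a model of 4 group means gave single times and their difference. Tests were two-sided, and the procedure was tested on simulated data. The number of arrays limits the precision. Single measures were compared by exact permutation within times. The labels number the replicates without naming animals, and each was taken as a separate animal.

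Genes named by rule had 1 symbol and a mean above the 40th percentile. The 10 of smallest p each way came from modest sustained changes called at neither time. Another 8 each way came from sustained changes called at both. The 4 of smallest interaction p followed, and up to 4 of smallest p in each of 14 lists. These lists had at least 8 genes and the highest shares called, cell type marker lists left out. The rule gave 87 probe sets, and 31 genes were added after their values were seen, besides Cldn16 and, at a threshold, Septin9. The cut on mean signal was not applied to the 31, and some of them, such as Mcm6, were dim. The comparison, lists and rules were chosen with earlier results of these data known. Promoter windows are from RefSeq. Other settings covered the pseudocount, normalization, filter, eBayes options, blocks, covariates, definitions of sustained, and arrays left out.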

Additional observations from a re-analysis of the deposited data

Results flagged for a closer look

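HSF is the high salt and fat diet. In groups of 6 arrays, a value was singled out where its gap to the nearest other was large for the group's range. Of 488 groups tested, 21 (4.3%) had one, and chance flags about 1 in 20 groups.

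Values above the rest of their group were Anxa5 at 542.7 (normal, 2 weeks, array 1), Crip2 at 557.1 and Cpt1b at 269.9 (HSF, 2 weeks, array 5), Ppp1r1b at 130 (normal, 8 weeks, array 3), Sord at 1483 and Pdp2 at 290.8 (HSF, 8 weeks, array 2), Lamb2 at 199.7 (normal, 8 weeks, array 6) and Havcr1 at 94.7 (normal, 2 weeks, array 4). The Havcr1 value stands against 19.7 to 35.8 on the other 5 arrays.

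Values below the rest were Arl1 at 287.1 (array 3) and Hoga1 at 261.8 (array 1) on the HSF diet at 8 weeks, Tcaim at 212.3 (array 1) and Slc4a1 at 321 (array 6) on the normal diet at 2 weeks, and Aqp3 at 344.2 and Ddx39b at 366.7 (array 1) and Gatm at 1296 (array 6) on the normal diet at 8 weeks. On the HSF diet at 2 weeks they were Aqp3 at 459.3 (array 4), Gadd45g at 179.6 (array 6) and, all on array 2, Akr1b1 at 221, Flna at 231 and Psca at 53.2. The same array 2 had a 3' to 5' ratio of the actin control probe sets of 2.269, against 1.31 to 1.567 on the other 5. Its Akr1b1 and Psca values, against 563.5 to 880 and 143.9 to 213.4 on the others, were still above every normal-diet array.

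The diet effect at 8 weeks exceeded that at 2 weeks, by a called interaction, for Havcr1 (2.48), Lcn2 (1.73), Col1a1 (1.57), Spp1 (1.25), Clu (1.19), Col3a1 (0.91) and C1qa (0.62).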

How the results depend on the processing

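The count of called probe sets was within 1.5 times of 1639 in every setting run, and the higher share, 55.7%, stayed between 51.1 and 58.4% in the settings that kept all arrays. The count of sustained probe sets moved to 770 with the smaller estimate at least 0.67 times the larger, that called at neither time from 611 to 406 and its modest part from 521 to 330 with the fat index as a covariate, and that at 8 weeks from 849 to 511 when only the 12 arrays of that time were fitted. The larger-p count of 104 became 62 with the GAPDH ratio, 30 with the fat index, 32 with the spike-in level as a covariate and 65 without normal-diet arrays 1 and 2 at 8 weeks. The 11 time-dependent probe sets became 0 with the GAPDH ratio, 0 with the spike-in level, 2 with the fat index, 2 with eBayes without trend, 1 with least squares without moderation, 6 with quantile normalization and 2 without arrays 1 and 2. For these the cause was not tested. Of the 611 called at neither time, 401 to 597 were in that group again under other processing of all arrays without a covariate. With a covariate it was 220 for the fat index, 241 for the GAPDH ratio and 421 for the spike-in level. Without normal-diet arrays 1 and 2 at 8 weeks it was 288.

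Leaving out 1 array gave 1269 to 1841 called (720 to 992 higher, 549 to 863 lower), 911 to 1302 sustained, 484 to 735 called at neither time, of which 413 to 609 modest, 79 to 116 by the larger p and 1 to 18 time-dependent; the lowest counts called, sustained and called at neither time came without high salt and fat array 1 at 8 weeks, and the time-dependent count moved by more than 1.5 times in 16 of 24 such fits. Replicate numbers did not pair the arrays (correlations of same-numbered deviations -0.155 to 0.172); with the replicate block, 1583 were called, 1131 sustained and 596 called at neither time. Among named probe sets, 1983 of 2004 values kept call and sign, 21 were no longer called and 0 reversed, and on leaving out 1 array 2804 of 2832 kept them. The thick ascending limb median was 0.38 when a gene's probe sets were averaged. For dim probe sets, below the 40th percentile, r between times was 0.257, against 0.443 above it. The part of background in this was not tested.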

Other observations

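Genes of drug and xenobiotic metabolism, which the proximal tubule shares with the liver, were lower in 12 of 70 measured genes and higher in 1. Of these 13, 11 were sustained, and the list's median was -0.1. The share called was 18.6%, against 11.8% of all genes (6.85% higher and 4.94% lower). No list was tested as a set. Cyp2c23, the rat kidney's main epoxygenase of arachidonic acid, went from a median of 3712 (2898.6 to 3952.2) to 2602 (2176.2 to 3184.7), with -0.55 at 2 weeks and -0.27 at 8 weeks. Cyp2e1 had -0.52 and -0.35. The transcription factors and nuclear receptors of the proximal tubule held 4 lower and 1 higher of 17, among them Vdr, the vitamin D receptor, which went from a median of 158.1 (104.1 to 207.3) to 92.15 (57.6 to 119.5). Fatty acid synthesis and desaturation genes were lower in 6 of 24 and higher in 1. Scd, a stearoyl-CoA desaturase, was listed from 32.8 to 2328.3 on normal chow and from 5.1 to 43.6 on high salt and fat, and its spread on normal chow was wide. Adipose tissue also expresses Scd, and the fat index moved with it at 2 weeks, a part that was not tested. The acyl-CoA synthetase Acsl5 went up, with 0.52 at 2 weeks and 0.66 at 8 weeks and no overlap of the 12 and 12 arrays.

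Cell cycle and growth arrest genes were higher in 7 of 43 and lower in 0, with 6 sustained. The share called was 16.3%, against 11.8% of all genes. The kinase Cdk1 and the replication helicase subunit Mcm6 were dim, with medians of 26.2 and 14.35 on normal chow and 47.5 and 29.7 on high salt and fat, and differed by 0.76 and 0.81. The stress genes Gadd45b and Gadd45g had 0.9 and 0.68 at 2 weeks and 0.9 and 0.9 at 8 weeks. RNA splicing genes were higher in 9 of 44 and lower in 1, with 8 of the 10 sustained. Ddx39b, an RNA helicase of splicing and export, had 0.43 and 0.3 at the 2 times without overlap of the 12 and 12 arrays. In the insulin-like growth factor list, 3 of 22 genes were higher and 4 lower, and 5 of the 7 were called at neither single time. Igfbp3, the main carrier of insulin-like growth factor, was lower, with -0.42 and -1.01, and Igfbp1 higher, with 0.56 and 0.48, although the Igfbp1 call was lost with the GAPDH ratio as a covariate (adjusted p = 0.0867). Glutathione, thioredoxin and NRF2 target genes were 5 higher and 7 lower of 53, with 10 sustained, 7 of these 10 called at neither time. Interferon and antigen presentation genes were higher in 7 of 41 (17.1% called). Ifitm1, a membrane protein of that response, had 0.47 and 0.64, and Stat3, a signal transducer, 0.45 and 0.56 on 1 probe set with -0.01 as the main effect of another. All genes in these paragraphs were named after their values were seen.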
